A study of Homo sapiens with 4 samples.

Results

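The human genome carries many copies of the Y RNA genes outside the gene cluster on chromosome 7, and 169 of them, each with a summed count of at least 5 in 4 small RNA libraries, are described here. They were chosen by the annotation type Y_RNA, by that sum of raw counts, and by a position (GRCh38) away from the chromosome 7 stretch with the genes RNY1, RNY3 and RNY4, from a table of 155642 annotated features. The table held 696 features of that type, of which 3 lay in the cluster and 693 outside it. A count in any library was found for 325 of the 693, and the 524 features outside the cluster that fell short of the sum held 106 and 61 counts in Shp53 replicates 1 and 2, against 53 and 53 in NTSH replicates 1 and 2. The sum alone chose the copies, so their presence and total level are a description. Just inside the limit were a copy at chr12:6234345-6234455 with 2 and 3 counts in Shp53, against 0 and 0 in NTSH, and one at chr1:180519016-180519119 with 1 and 1 in Shp53, against 2 and 1 in NTSH. Just outside it were copies at chr4:112755816-112755917, with 0 and 1 in Shp53 against 3 and 0 in NTSH, and at chr22:37013225-37013319, with 2 and 1 in Shp53 against 1 and 0 in NTSH.

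HT29, an established line of human colon cancer cells, was the source of the small extracellular vesicles (membrane-enclosed particles shed by cells) whose RNA was sequenced, at passages 5 to 15. The 2 Shp53 libraries are of vesicles from HT29 cells that carry an shRNA to p53, the tumour suppressor, and the 2 NTSH libraries are of those from HT29 cells with a nontargeting sequence. The labels give no clone, and no separate cultures for the libraries of a group, so a p-value here reflects the spread among these 4 samples alone, and that spread could be technical. Inserts were size-selected to 18 to 40 nt, so every count on a Y RNA copy is of a fragment. Library totals were 2611032 and 1940942 counts in Shp53 and 1099694 and 938754 counts in NTSH. Of the marker miRNA hairpins looked up, those with any count were the epithelial MIR141, with 1 and 2 counts in Shp53 against 0 and 0 in NTSH, and MIR200C, with 0 and 0 in Shp53 against 1 and 0 in NTSH. MIR192 and the other epithelial, blood and stromal hairpins with a feature were listed at 0, so cell identity was not checked here, and neither was the p53 knockdown. In bulk vesicle RNA, fewer vesicles that carry an RNA and less of it per vesicle cannot be told apart.

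Y RNAs are short non-coding RNAs, transcribed by RNA polymerase III and folded into a stem of their paired ends with a loop between. They are bound by the Ro60 protein near the stem and by La at the 3′ end, and have been linked to RNA quality control and the start of DNA replication. Fragments of them are common in cells and in vesicles. Most copies outside the cluster are thought to be retrotransposed and not transcribed as genes.

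The nearest of the 3 cluster genes was found for each copy from the edit distance between their GENCODE 29 sequences (GRCh38). RNY1 was nearest to 82 copies with a median identity of 86.3%, RNY3 to 50 copies with 89.4%, and RNY4 to 37 copies with 85.4%. The copies lay on 20 chromosomes, most often on chromosome 2 with 15. By the annotation 112 were intronic, 51 intergenic, 4 in a UTR, 1 in a coding exon and 1 in another exon. Of the 169, 168 shared no base with another feature on either strand. The exact first 30 bases of the nearest gene were kept by 0 copies of RNY1, 1 of RNY3 and 0 of RNY4, and the exact last 30 bases by 1, 1 and 0. Shorter runs of gene sequence were shared by many copies, those with the most counts among them.

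The copies with most reads shared a stretch of 17 bases, positions 17 to 33 of RNY4. It is the longest run common to the 14 copies with the largest sums, and was found after their counts were seen. Inserts were selected to be at least 18 nt, so no read of that size lies within the stretch. The bases at positions 17 to 34 of RNY4 were kept by 13 copies, and those at positions 16 to 33 by 12. A read of at least 18 nt therefore cannot match all 14 copies exactly. The sequences, from GENCODE 29, show RNY4, 4 of these copies that differ outside the stretch, and the copy ranked 15, with the stretch or the bases aligned to it in capitals.
RNY4 (chr7:148963315-148963410, + strand): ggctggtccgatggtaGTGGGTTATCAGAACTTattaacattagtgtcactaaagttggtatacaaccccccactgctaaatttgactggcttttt
PARD3 intron copy (chr10:34201979-34202074, - strand): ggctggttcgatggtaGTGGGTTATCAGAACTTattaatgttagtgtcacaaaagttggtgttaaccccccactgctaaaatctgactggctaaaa
PROS1 intron copy (chr3:93967926-93968020, + strand): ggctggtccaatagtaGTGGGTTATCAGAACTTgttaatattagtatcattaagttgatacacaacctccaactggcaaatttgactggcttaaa
RIOK3 intron copy (chr18:23456371-23456467, + strand): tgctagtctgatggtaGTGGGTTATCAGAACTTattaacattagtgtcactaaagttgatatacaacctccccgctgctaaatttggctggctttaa
COQ5 intron copy (chr12:120504571-120504659, - strand): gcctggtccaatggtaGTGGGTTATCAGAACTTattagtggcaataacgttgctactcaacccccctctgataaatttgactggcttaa
FAM184A intron copy (chr6:119057880-119057974, + strand): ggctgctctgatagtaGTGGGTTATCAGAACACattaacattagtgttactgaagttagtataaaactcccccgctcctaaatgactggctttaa

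The other shared runs lie nearer the ends of the genes. RNY1 and 2 of its copies are shown with the 18 bases (positions 85 to 102) whose holders had most counts among its copies, and a copy of RNY4 with 27 bases (positions 67 to 93) that 2 copies kept. For RNY3 the window chosen likewise is positions 2 to 19. These windows were also picked by their counts. Copies with positions 86 to 103 of RNY1, or 3 to 20 of RNY3, had equal summed counts (1711 and 672). The lower start was taken in each case.
RNY1 (chr7:148987136-148987248, - strand): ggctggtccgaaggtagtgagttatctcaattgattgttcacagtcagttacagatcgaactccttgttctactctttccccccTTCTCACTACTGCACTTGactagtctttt
Intergenic copy of RNY1 (chr4:159064297-159064398, - strand): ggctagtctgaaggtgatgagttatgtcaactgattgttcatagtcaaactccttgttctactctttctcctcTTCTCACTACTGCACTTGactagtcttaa
BTBD9 intron copy of RNY1 (chr6:38565950-38566055, + strand): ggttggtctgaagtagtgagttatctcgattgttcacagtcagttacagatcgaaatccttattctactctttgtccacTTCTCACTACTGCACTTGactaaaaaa
Intergenic copy of RNY4 (chr11:33004250-33004345, - strand): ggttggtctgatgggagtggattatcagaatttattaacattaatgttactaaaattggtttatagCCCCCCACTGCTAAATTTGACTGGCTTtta

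A few copies held nearly all counts. The 169 copies had 49838 and 3320 counts in Shp53, against 6289 and 1942 in NTSH. The 14 copies with the inner stretch of RNY4 held 86.3% of them, and the top 15 copies 91.0%. The sum fell to 3569 at rank 14, 2880 at rank 15 and 325 at rank 16, and the median copy had 15 counts in all, with 92 copies under 20. By library, the 14 copies held 91.2% and 70.9% of the dispersed counts in Shp53, against 73.7% and 25.6% in NTSH. They had more counts than all other copies together in both Shp53 libraries and NTSH replicate 1, but not in NTSH replicate 2. A count in every library was found for 106 of the 169 copies.

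**Figure D1:**
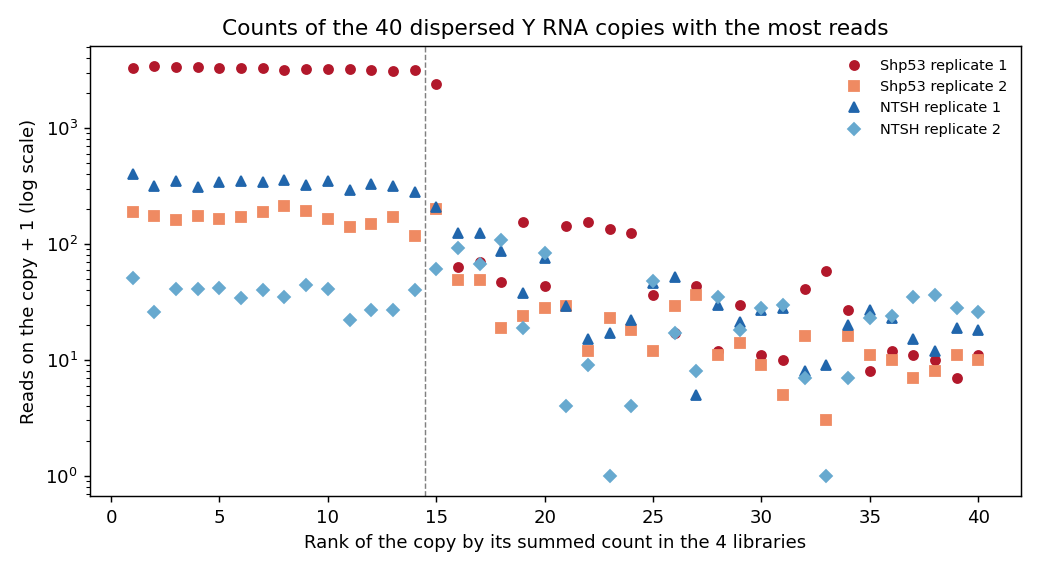
Reads plus 1 (log scale) on each of the 40 copies with the largest sums, by rank, in the 4 libraries. The 14 copies left of the dashed line hold the inner stretch of RNY4 and lie within a narrow band in each library, at 3120 to 3396 reads in Shp53 replicate 1 and at 21 to 50 in NTSH replicate 2.

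Within a library the 14 copies had nearly the same count. They ranged from 3120 to 3396 in Shp53 replicate 1, with a mean of 3248 ± 84.8 (SD over 14 copies), and from 117 to 212 in Shp53 replicate 2, with 168 ± 23.6. In NTSH replicate 1 they ranged from 280 to 400 (331 ± 29.8), and in NTSH replicate 2 from 21 to 50 (35.5 ± 8.28). The SD over copies was thus 2.61% and 14.01% of the mean in Shp53 and 9.004% and 23.3% in NTSH, although the copies lie on several chromosomes and their sequences match RNY4 at 80.2% to 91.7%. These copies share bases, so they are not independent measurements of a condition. The sources used here do not give how reads that match several places were assigned, and a read on 1 copy need not come from that locus.

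By name, the 10 copies with the largest sums lay in introns of PARD3, PROS1, API5, UNC79, RIOK3, COQ5 and CLK1, in the UTR of ATP5MC3, and between genes at chr11:118970498-118970595 and chr1:44153385-44153480. The copy in PARD3, a cell polarity gene (URS00006CB0C3), had 3277 and 186 counts in Shp53, against 400 and 50 in NTSH, and was the largest copy of NTSH replicate 1. The copy opposite PROS1, that is within it on the other strand, (URS00006DD96E; PROS1 encodes the anticoagulant protein S) had 3396 and 174 counts in Shp53, against 316 and 25 in NTSH, and was the largest of Shp53 replicate 1. The copy in RIOK3, a gene of an atypical kinase (URS0000724DC4), had 3176 and 212 in Shp53, against 353 and 34 in NTSH, and was the largest of Shp53 replicate 2. In each of these copies Shp53 replicate 1 was highest and NTSH replicate 1 stood above Shp53 replicate 2, so the groups overlapped. A different copy led NTSH replicate 2, that of RNY3 in FNBP4, with 108 counts.

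The inner stretch was not found in every feature with counts, nor did every feature with the stretch have counts. Of the 17 Y RNA features that hold it, 14 are the copies above and had all of it in bases that no other feature covers. The RNY4 gene holds it as well, but only its positions 1 to 17 are free of other features, and it had 127 and 12 counts in Shp53, against 11 and 1 in NTSH. The other 2 features, at chr12:49132853-49132947 and chr3:157153548-157153640, have no base of their own and had 0 counts. More widely, 0 of the 39 dispersed Y RNA features with no base of their own had a count, against 325 of the 654 with such bases. GENCODE 29 lists 26 transcripts of Y RNA size with the stretch. Of them 9, pseudogenes of RNY4 by name, lie where the deposited counts have no feature, so they have no counts here.

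Within a library most copies of RNY4 with changes in the stretch had fewer reads than the 14, but not all, and the separation was weakest in NTSH replicate 2. The stretch was taken from the 14 copies with the largest sums, so a copy without it had to have a smaller sum. The 12 copies with 1 mismatch had 7 to 152 counts (median 40.5) in Shp53 replicate 1, against 1 to 122 (median 9.5) in NTSH replicate 1. The 8 copies with 2 mismatches had 0 to 2410 (median 39) in Shp53 replicate 1, against 0 to 209 (median 11) in NTSH replicate 1. In the second replicates the copies with 1 mismatch had 1 to 48 counts (median 10) in Shp53, against 0 to 66 (median 2) in NTSH, and those with 2 mismatches 0 to 201 (median 14) in Shp53, against 0 to 92 (median 1) in NTSH. In NTSH replicate 2, where the 14 copies had at most 50, the copy opposite ART1 with 1 mismatch had 66, and 2 mismatches were found in a copy with 92 (chr11:33004250-33004345) and in one with 60. The copy with 2410 is the one opposite FAM184A at rank 15 (URS0000A7AB58), with 2410 and 201 counts in Shp53 and 209 and 60 in NTSH. Its substitutions, T16A and T17C, counted from 1 at the 5′ end of the stretch and with the base of RNY4 first, are the last bases of it. This copy lay below all 14 in Shp53 replicate 1 and NTSH replicate 1, and above their mean in Shp53 replicate 2 and NTSH replicate 2. Another copy with 2 mismatches, A8G and A14G, at chr22:41065554-41065646, had 155 and 23 counts in Shp53, against 37 and 18 in NTSH. The grouping by mismatches was made after the counts were seen and has no test. It does not show that counts depend on the stretch.

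**Figure D2:**
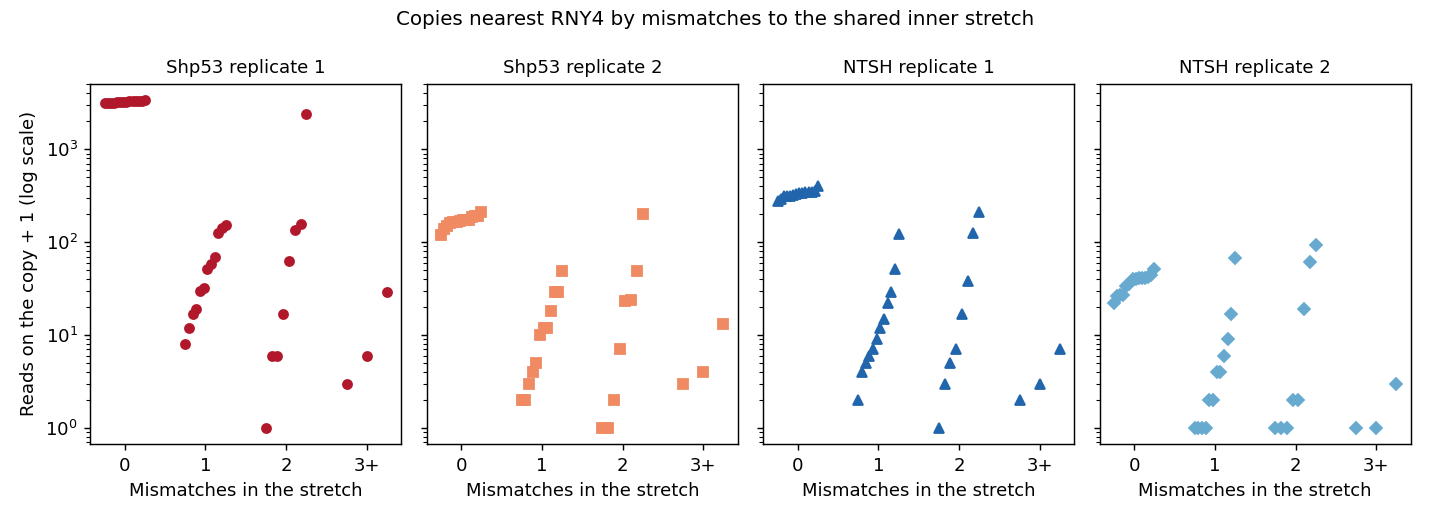
Reads plus 1 (log scale) on each of the 37 copies nearest RNY4, by their mismatches to the inner stretch, with the 2 Shp53 libraries left of the 2 NTSH libraries and copies of a column sorted by count. In Shp53 replicate 1 all copies with 0 mismatches had 3120 or more reads, and the copies with 1 mismatch at most 152. The stretch was taken from the copies with the largest sums, so lower sums of the others follow from that choice.

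Replicates differed most in these copies of RNY4. As a share of all library counts, the 14 copies held 1.74% and 0.121% in Shp53, against 0.422% and 0.0529% in NTSH. Replicate 1 was 14.4 times replicate 2 in Shp53, and 7.96 times replicate 2 in NTSH. Both ratios exceeded the ratio of the group means, 3.93, and the groups overlapped. The RNY4 gene varied alike, with 0.00486% and 0.000618% in Shp53, against 0.00100% and 0.000107% in NTSH. The copies of RNY1, by contrast, gave ratios of replicate 1 to replicate 2 of 1.17 in Shp53 and 0.687 in NTSH, and the copies of RNY3 of 1.62 and 0.766. Whether depth or another feature of the 4 libraries moves with these ratios was not tested.

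All 169 copies together held 1.91% and 0.171% of library counts in Shp53, against 0.572% and 0.207% in NTSH, with means of 1.04% ± 1.23 and 0.389% ± 0.258 (SD, n = 2). Shp53 had the highest and the lowest library, and a two-sided exact permutation test gave p = 1. The 37 copies nearest RNY4 held 1.88% and 0.146% in Shp53, against 0.483% and 0.0824% in NTSH (exact permutation p = 0.667, adjusted p = 0.889 over 4 shares). Without Shp53 replicate 1 the difference of Shp53 minus NTSH turned, in percentage points, to -0.218 for all copies from 0.651, and to -0.137 for copies of RNY4 from 0.728. The 82 copies nearest RNY1 held 0.0219% and 0.0187% in Shp53, against 0.0597% and 0.0869% in NTSH. The 50 copies nearest RNY3 held 0.0102% and 0.00629% in Shp53, against 0.0287% and 0.0375% in NTSH. For RNY1 and for RNY3 both Shp53 libraries lay below both NTSH libraries (two-sided exact permutation p = 0.333, adjusted p = 0.667). With 2 against 2, 0.333 is the smallest p this test can give.

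**Figure D3:**
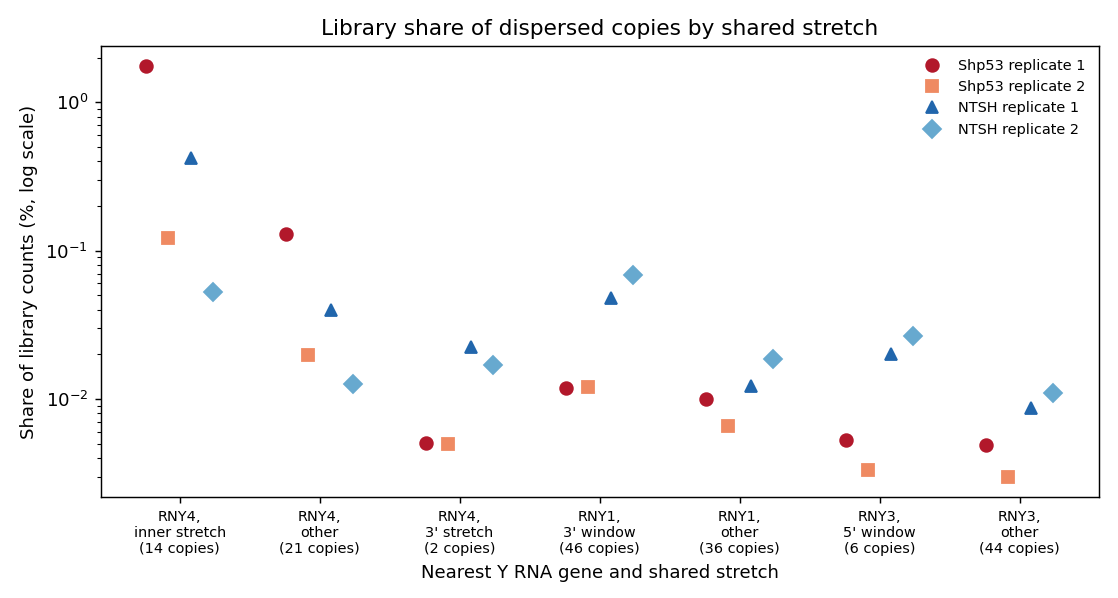
Share of library counts (%, log scale) on the dispersed copies, grouped by nearest Y RNA gene and shared stretch, in the 2 Shp53 and the 2 NTSH libraries. The inner stretch of RNY4 spans 0.0529% to 1.74% with overlapping groups, while for the copies of RNY1 and RNY3 and the 3′ stretch of RNY4 both Shp53 libraries lie below both NTSH libraries.

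Most counts on copies of RNY1 were on those that keep its 3′ window, in each library. They held 311 of 572 and 235 of 362 counts in Shp53, against 523 of 657 and 642 of 816 in NTSH. That window was picked by its counts, so this lead follows in part from the choice. The 46 of 82 copies with the 18-base window held 0.0119% and 0.0121% of library counts in Shp53, against 0.0476% and 0.0684% in NTSH, and the ratio of the group means was 0.207. The other 36 copies held 0.009996% and 0.00654% in Shp53, against 0.0122% and 0.0185% in NTSH, a ratio of 0.538. Neither set overlapped between the groups, both being lower in Shp53, and the difference between the sets was not tested. The RNY1 gene of the cluster, which holds the window too, had 0.0374% and 0.0645% in Shp53, against 0.710% and 1.24% in NTSH, a ratio of 0.0524. Its log2 change was -4.70 (SE 0.31), with an adjusted p of 0.122 in edgeR's quasi-likelihood test with Benjamini-Hochberg adjustment.

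On copies of RNY3 most counts were on those that keep its 5′ window, again in each library and again a window picked by its counts. They held 138 of 266 and 64 of 122 counts in Shp53, against 221 of 316 and 249 of 352 in NTSH. The 6 of 50 copies with the window of RNY3 held 0.00529% and 0.00330% in Shp53, against 0.0201% and 0.0265% in NTSH, and the other 44 copies 0.00490% and 0.00299% in Shp53, against 0.00864% and 0.0110% in NTSH. The copy in an exon of FNBP4 at chr11:47726894-47726992, a gene of a formin-binding protein, had 46 and 18 counts in Shp53, against 85 and 108 in NTSH. The copy opposite SCAMP5, a secretory carrier membrane protein gene, at chr15:74983274-74983376, had 42 and 27 in Shp53, against 75 and 83 in NTSH. The copy in VARS, a valyl-tRNA synthetase gene, at chr6:31778817-31778905, had 35 and 11 in Shp53, against 45 and 47 in NTSH. In all 3 the Shp53 libraries lay below the NTSH libraries although Shp53 was sequenced more deeply. The RNY3 gene held 0.00234% and 0.00134% in Shp53, against 0.0117% and 0.0126% in NTSH.

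The 2 copies with the 3′ stretch of RNY4 did not follow the copies with the inner one. The copy at chr11:33004250-33004345 (URS00006C2A6C) had 62 and 48 counts in Shp53, against 123 and 92 in NTSH. The copy opposite ART1 at chr11:3663815-3663911 (URS000069B369) had 69 and 48 in Shp53, against 122 and 66 in NTSH. Together they held 0.00502% and 0.00495% of library counts in Shp53, against 0.0223% and 0.0168% in NTSH, with no overlap, a ratio of 0.255. Their replicate ratios were 1.01 in Shp53 and 1.32 in NTSH. These copies also have 2 mismatches (G5A and C15T) and 1 mismatch (G1A) in the inner stretch.

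For the comparison of Shp53 with NTSH copy by copy, 58 of the 169 passed edgeR's filter on low counts, 30 nearest RNY1, 3 nearest RNY3 and 25 nearest RNY4. Of the 58, 25 passed through the NTSH libraries alone and 1 through the Shp53 libraries alone. Such copies had to differ in CPM before TMM scaling, the scale of the filter. The counts and medians that follow therefore describe these 58, support no direction and do not stand for all copies. Values are given in CPM after TMM scaling of the libraries. In edgeR's quasi-likelihood test over 2780 features, 0 of the 58 copies passed a Benjamini-Hochberg adjusted p of 0.05 (background 0%), with adjusted p from 0.122 upward. Before adjustment, 28 were lower in Shp53 at a p under 0.05 (background 7.81%) and 0 higher (background 4.35%). The 2 groups did not overlap in 32 copies that were lower (background 18.6%) and 1 that was higher (background 22.9%), and overlapped in 25. The DESeq2 Wald test called 2 copies lower (background 1.29%) and 0 higher (background 0.036%), and limma voom 0. With the replicate number as a block, edgeR's adjusted test called 15 lower (background 3.27%) and 0 higher (background 0.432%). With no filter on low counts, 25 of the 169 were lower (background 1.47%) and 3 higher (background 4.4%) at an unadjusted p under 0.05. That background covers every feature with a count, including ones below the sum that the copies had to reach. The sets are therefore unlike, and these counts support no direction. The median log2 change was -2.12 over the 58, -2.99 for RNY1, -2.85 for RNY3 and 1.19 for RNY4, beside 0.05 over all features tested.

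Of the 46 copies with the RNY1 window 25 were tested, and 24 of these passed the filter through the NTSH libraries alone, so their calls are not counted here. With no filter on low counts, the median log2 change of all 46 was -1.95, beside 1.38 over all features with a count. Those features include ones under the sum of 5 that the copies had to reach, so the sets are unlike. The largest change among copies whose groups were apart was at chr2:170783167-170783271 (URS0000A8472C), with 3.22 and 0.429 CPM in Shp53, against 42.8 and 19.8 CPM in NTSH (log2 change -4.01, SE 0.90). The copy opposite ABRAXAS2, a gene of a deubiquitinase scaffold, at chr10:124814958-124815062 (URS00006D5040), had 2.14 and 1.29 CPM in Shp53, against 25.1 and 30.7 CPM in NTSH (log2 change -3.96, SE 0.26). In both, each NTSH library was above each Shp53 library. The intergenic copy at chr4:159064297-159064398 (URS00006F78B4) had 3.22 and 1.72 CPM in Shp53, against 39.8 and 28.7 CPM in NTSH (log2 change -3.74, SE 0.38). The copy annotated to a coding exon of TSTD3 at chr6:99526097-99526205 (URS00006C83B9) had 2.50 and 0.858 CPM in Shp53, against 28.0 and 15.8 CPM in NTSH (log2 change -3.62, SE 0.58). A copy of RNY1 without the window, at chr12:88430442-88430550 (URS0000696377), had like values, with 1.43 and 2.14 CPM in Shp53, against 20.7 and 29.7 CPM in NTSH (log2 change -3.78, SE 0.31). All 5 passed the filter through NTSH alone and were picked by their log2 change, so their p-values support no direction. Their adjusted p was 0.122 or 0.127 in edgeR's quasi-likelihood test. In that test with the replicate number as a block it was 0.00835 to 0.0155, although the labels do not say that numbers pair libraries. The DESeq2 Wald test called the copies at ABRAXAS2 (adjusted p = 0.0411) and on chromosome 4 (adjusted p = 0.0481). Raw counts behind these values are small, 6 and 3 in Shp53 against 17 and 31 in NTSH for ABRAXAS2.

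The 5 tested copies of RNY1 without the window were mixed, with a median log2 change of -0.40 that was 0.00 with library totals in place of TMM. One of them, opposite an intron of the antisense gene AC022217.3 at chr5:172779982-172780094 (URS00006754D0), was the 1 copy whose groups did not overlap with Shp53 above. It had 15.0 and 15.0 CPM in Shp53, against 5.90 and 6.93 CPM in NTSH, a log2 change of 1.21 (SE 0.10) with an adjusted p of 0.632 in edgeR's quasi-likelihood test. Its raw counts were 42 and 35 in Shp53, against 4 and 7 in NTSH. The 3 tested copies of RNY3 had log2 changes of -3.26 (FNBP4), -2.85 (SCAMP5) and -2.70 (VARS), with edgeR quasi-likelihood adjusted p between 0.230 and 0.284.

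**Figure D4:**
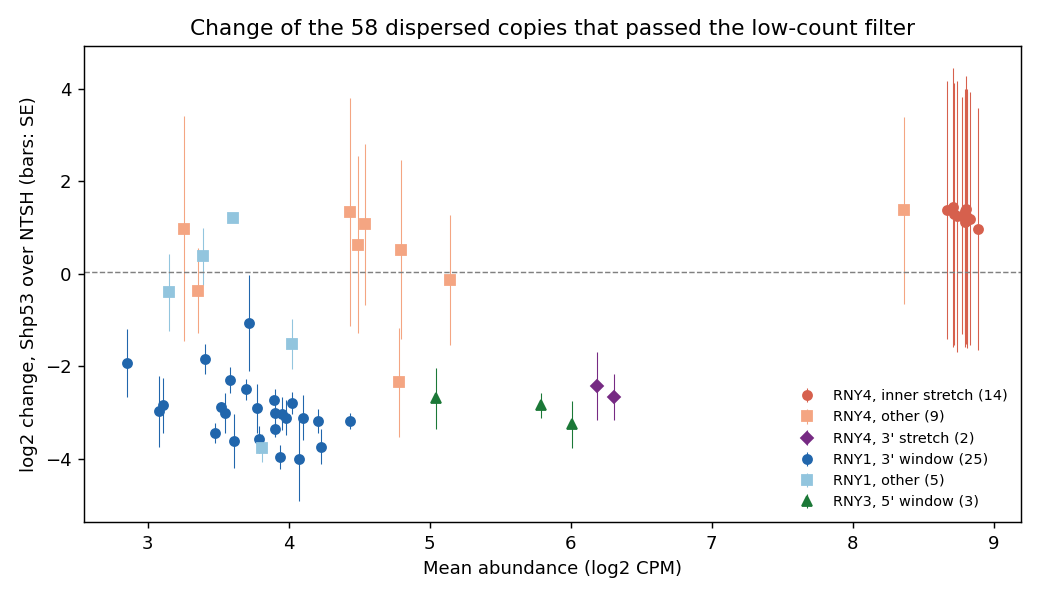
Log2 change of Shp53 over NTSH (points, with the SE as bars) against mean abundance (log2 CPM) for the 58 copies that passed the low-count filter, by nearest gene and shared stretch, with the median of all features tested as a dashed line at 0.05. The 14 copies with the inner stretch lie at 0.97 to 1.44 with SEs of 2.56 to 3.02, and the 25 copies with the RNY1 window, 24 of which passed the filter through NTSH alone, at -4.01 to -1.07.

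The 14 copies with the inner stretch had log2 changes from 0.97 to 1.44 with SEs from 2.56 to 3.02, and edgeR quasi-likelihood adjusted p from 0.772 to 0.850. In the PARD3 copy, normalized values were 1171 and 79.8 CPM in Shp53, against 590 and 49.5 CPM in NTSH. The sign rested on 1 library: without Shp53 replicate 1 the 14 changes ran from -1.96 to -1.40, and without NTSH replicate 1 from 3.46 to 4.67. The 2 copies with the 3′ stretch had log2 changes of -2.67 (SE 0.49) and -2.43 (SE 0.73), with edgeR quasi-likelihood adjusted p of 0.348 and 0.420. The other 9 tested copies of RNY4 ranged from -2.35 to 1.37 with a median of 0.63. Among these 9, only the copy opposite TMX1 at chr14:51253933-51254023 had groups that did not overlap, with 5.72 and 12.0 CPM in Shp53, against 75.2 and 15.8 CPM in NTSH.

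Since copies share sequence, their counts were also summed per nearest gene and tested as 1 feature each among 2725. The sum for RNY1 had 204 and 154 CPM in Shp53, against 973 and 810 CPM in NTSH, a log2 change of -2.32 (SE 0.24). The sum for RNY3 had 95.0 and 51.9 CPM in Shp53, against 468 and 350 CPM in NTSH, a log2 change of -2.48 (SE 0.48). The groups did not overlap in either. The sum for RNY4 had 17505 and 1206 CPM in Shp53, against 7876 and 769 CPM in NTSH, a log2 change of 1.11 (SE 2.56) with overlapping groups. The edgeR quasi-likelihood adjusted p was 0.433 for RNY1, 0.428 for RNY3 and 0.790 for RNY4.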

How the data were processed

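The authors deposited raw counts, whole numbers of reads per RNAcentral feature, with an annotation on GRCh38. The submitters' processing notes name bcl2fastq 2.19, BWA 0.7.17 and Subread 1.6.3, and settings for reads that match several places or features are not given in the sources used here, although both can change a count. Copies were matched to GENCODE 29 transcripts by position. RNY5 was not among the genes compared. The counts were tested with edgeR 4.0.16 (quasi-likelihood, TMM, its low-count filter, Benjamini-Hochberg at 0.05) in R 4.3.3. The SE of a change comes from the variances of log2 CPM within groups (prior count 2). The test was also run on simulated counts with known changes. Their spread between replicates was set and not taken from these libraries, so that run does not show how the test performs here. Alternatives were DESeq2 1.42.0, limma 3.58.1 voom, other scalings and filters, a replicate block and each library left out. Copies named are the 10 largest, the largest per library, up to 5 per direction by log2 change among tested copies whose groups do not overlap, those beside the sum limit, and others chosen after their values were seen. The copies, stretches and lists were chosen with earlier results of these data known. Library totals limit precision, and most copies have too few counts to test. The sequences of RNY3 and its copies are not reported here.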

Additional observations from a re-analysis of the deposited data

How the results depend on the processing

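Calls depended on the tool. The DESeq2 Wald test called 2 copies lower and, of all features, 36 lower and 1 higher. The replicate numbers are shared between groups without a stated meaning, and there are only 2 pairs. Deviations of same-numbered libraries from their group mean correlated at 0.395 over 2780 features and at 0.866 over the 58 copies tested. Many of these copies share bases, so they are not independent values, and what the number stands for was not tested. With the replicate number as a block, edgeR called 91 features lower and 12 higher (background 3.27% and 0.432%), among them 15 copies lower. Of the 58 copies tested, 25 passed the filter through NTSH alone and had to differ in CPM before TMM scaling, so this count supports no direction. With no low-count filter 25 copies were lower (background 1.47%) and 3 higher (background 4.4%) at an unadjusted p under 0.05 in edgeR's test. That background includes features below the sum that the copies had to reach, so the sets are unlike and these counts support no direction. Over all features the median log2 change was 0.49 with library totals and 1.38 with no filter, beside 0.05. In the same order, that of the copies was -1.55 and -0.79, of RNY1 copies -2.50 and -1.70, and of RNY3 copies -2.36 and -0.81. The medians with no filter come from the same unlike sets.

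With each library left out, copies lower at an unadjusted p under 0.05 numbered 1 to 30 (6 without Shp53 replicate 1 and 1 without Shp53 replicate 2) and copies higher 0 to 2 (2 without NTSH replicate 1). The features tested in these fits numbered 3003 to 5398, against 2780 with no library left out, so these counts have no common base. Each such fit leaves 1 library in a group, and no share over all features is given. The counts therefore support no direction. Median log2 changes ran from -2.41 to -1.09 for all copies, from -3.08 to -2.70 for RNY1, from -3.43 to -2.42 for RNY3 and from -1.61 to 3.73 for RNY4. The difference in share ran from -0.218 to 1.52 percentage points for all copies and from -0.137 to 1.59 for RNY4, and the summed RNY4 change, with its alternatives added after seeing the data, from -1.66 to 3.42. Each lowest value of RNY4 came without Shp53 replicate 1, which also turned the 10 largest copies. They ran from -1.80 to 3.46 (PARD3), -1.50 to 4.50 (PROS1), -1.80 to 3.80 (ATP5MC3), -1.53 to 3.81 (API5), -1.74 to 3.74 (chr11:118970498-118970595), -1.70 to 4.05 (chr1:44153385-44153480), -1.53 to 3.81 (UNC79), -1.40 to 3.99 (RIOK3), -1.46 to 3.65 (COQ5) and -1.79 to 3.74 (CLK1). The cause was not tested. The shares of RNY1 and RNY3 copies and their summed changes kept their direction under the alternatives run.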
